A study of Mus musculus with 6 samples.

Results

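The BCL2 family sets the threshold for mitochondrial apoptosis. Its pro-survival proteins bind and hold in check the effectors BAX and BAK, which otherwise form pores in the outer mitochondrial membrane, and the BH3-only proteins start cell death by occupying the pro-survival proteins or by engaging the effectors directly. Acute myeloid leukemia (AML) cells often depend on BCL2 or MCL1, and both proteins are drug targets. The 10 family genes described here were taken from a written list and looked up by symbol among the 54838 genes counted. They comprise the pro-survival genes *Bcl2*, *Bcl2l1* and *Mcl1*, the effector genes *Bax* and *Bak1*, and the BH3-only genes *Bcl2l11*, *Bid*, *Bad*, *Bbc3* and *Pmaip1*. All 10 had enough reads to be tested, and the list was made with earlier results of these data known.

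RNA was sequenced from sorted I1DN cells, a murine AML on a C57BL/6 background. All 6 samples carry IDH1R132H, DNMT3AR882H and NrasG12D, which had been introduced together into fetal liver stem and progenitor cells. Leukemic cells were transplanted into sublethally irradiated Ptprca recipients, and 3 mice received vehicle while 3 received AG636, an inhibitor of the pyrimidine synthesis enzyme DHODH, by oral gavage at 100 mg/kg b.i.d. Cells came from bone marrow and spleen and were sorted for cKit with low or absent CD11b. The sources used here give the length of treatment both as 1 day and as 4 days. All values come from a single engineered leukemia, and recipient ages are not given in the labels.

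Libraries held between 4634963 and 7906589 counts, and all levels below are in CPM, the counts of a gene per 1000000 counts of the TMM-scaled library. Because reads came from the 3′ end of each transcript, CPM do not grow with gene length and can be set side by side between genes. A level of 3 counts corresponds to between 0.392 and 0.637 CPM. The first principal component held 63.8% of the variance and separated the groups, with Vehicle replicate 1 farthest out. *Kit* lay between 31.8 and 46.3 CPM in every library, whereas *Hoxa9*, common in AML, did not exceed 0.566 CPM. These belong to 5 markers of immature leukemia cells, of which 4 were tested and 0 called. The 5 summed to 1807 to 3459 CPM with vehicle and 1196 to 2736 CPM with AG636. Log2 fold changes were -0.65 (SE 0.40) for *Mpo*, the most abundant, 0.45 for *Cd34*, 0.15 for *Kit* and 0.03 for *Myb*. Summed levels of 6 neutrophil markers ran from 1009 to 2328 CPM with vehicle and from 2818 to 5819 CPM with AG636, with 5 of the 6 called higher. Among these, *Ly6g* was tested only through its AG636 libraries (16, 31 and 27 counts, against 9, 11 and 9 with vehicle). Of the 5 monocyte and macrophage markers 2 were called higher, among them *Itgam*, which encodes the CD11b of the sort, with summed levels of 48.5 to 83.2 CPM against 129 to 179 CPM. The 4 erythroid markers summed to between 915 and 2506 CPM with vehicle and between 1261 and 1831 CPM with AG636, and 2 of them were called lower. Of 3 megakaryocyte markers 2 were called higher (735 to 1155 CPM against 1021 to 1661 CPM), as was 1 of 3 mast cell and basophil markers (272 to 456 CPM against 408 to 973 CPM). B cell, T cell and stromal markers each summed to at most 2.64 CPM, and the endothelial gene *Cdh5* was at 0 in every library. The part of these marker differences in the family's values was not tested, and in bulk samples fewer cells of a type and less RNA per cell cannot be told apart.

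*Bbc3* was the only family member called different between the groups. It encodes PUMA, a BH3-only protein that binds every pro-survival relative. A gene was called when edgeR's quasi-likelihood test gave it a p under 0.05 after Benjamini-Hochberg adjustment over all 11092 genes tested. By this rule 1 of the 10 members was called, against 21.3% of all genes tested, and the member was higher with AG636, a direction called for 10.3% of all genes. That share lay below the one of all genes here, but above it with no filter of low counts (3 of 10 against 14.8%) and without Vehicle replicate 2 (2 of 10 against 10.5%). The fit with no filter took in 21371 genes, so its share includes genes too low to be tested here. Without Vehicle replicate 1 (10.8% of all genes) or AG636 replicate 3 (7.58%), 0 members were called. Estimates were above 0 for 8 members and below 0 for 2, with a median log2 fold change of 0.25, beside a median of 0.03 over all genes. Of all 11092 genes tested, 5801 had an estimate above 0.

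The *Bbc3* gene lies at chr7:16308393-16318205 on the plus strand of mm10. Its level was 15.9, 20.8 and 17.1 CPM in the vehicle mice and 30.2, 28.9 and 42.3 CPM in the AG636 mice. Every AG636 library lay above every vehicle library, which was also true in 1 direction or the other for 41.1% of all genes tested. Means were 17.9 ± 2.56 CPM with vehicle and 33.8 ± 7.40 CPM with AG636 (SD, n = 3). The log2 fold change was 0.91 (SE 0.20, 95% confidence interval 0.45 to 1.36), with an adjusted p of 0.0147 (edgeR, Benjamini-Hochberg). The exact permutation test gave a two-sided p of 0.1, the smallest that 3 against 3 samples allow. *Bbc3* rose, but the call rested on 2 libraries. Without Vehicle replicate 1 the log2 fold change was 0.81 and the adjusted p 0.0511, and without AG636 replicate 3 they were 0.71 and 0.0619 (edgeR, Benjamini-Hochberg).

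The sequence before the start of a *Bbc3* transcript and of *Bcl2l11* is shown because both windows hold the FOXO core letters TGTTTAC. *Bbc3* was called and *Bcl2l11* was not, and the difference between them was not tested. FOXO proteins are transcription factors known to act on both genes. Both windows are RefSeq sequence of GRCm38.p6 on the plus strand and run from 250 bases before to 50 after an annotated start. Capitals mark the FOXO letters, which stand on the printed strand in *Bbc3* and as their reverse complement in *Bcl2l11*.
Bbc3, chr7:16310011-16310310: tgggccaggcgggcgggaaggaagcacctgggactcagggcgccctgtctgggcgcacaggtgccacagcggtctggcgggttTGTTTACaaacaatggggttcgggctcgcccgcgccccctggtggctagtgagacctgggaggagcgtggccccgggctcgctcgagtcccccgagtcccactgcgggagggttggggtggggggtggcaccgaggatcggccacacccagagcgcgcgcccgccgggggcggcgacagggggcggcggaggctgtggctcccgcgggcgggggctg
Bcl2l11, chr2:128125788-128126087: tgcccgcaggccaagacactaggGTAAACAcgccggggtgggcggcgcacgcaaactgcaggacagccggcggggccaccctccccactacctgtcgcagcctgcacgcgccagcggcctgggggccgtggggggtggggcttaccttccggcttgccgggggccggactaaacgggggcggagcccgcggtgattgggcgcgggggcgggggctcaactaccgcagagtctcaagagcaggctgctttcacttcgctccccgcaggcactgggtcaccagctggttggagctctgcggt

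The letters begin at position -167 from the start in *Bbc3* and at position -227 in *Bcl2l11*. Read on both strands, they occurred in 3.65% of the 32851 mouse windows of this length. The E-box CACGTG, in 7.15% of windows, was found in another *Bbc3* window (chr7:16310181-16310480, position -64) and in the *Bax* window (chr7:45466849-45467148 on the minus strand, positions -9 and 35). A p53 decamer, in 8.36% of windows, matched the *Bax* window at position -201. The ATF4-CEBP letters TGATGNAA (3.97% of windows) and the CRE letters TGACGTCA (1.79%) were in none of the 15 windows of 9 members. *Pmaip1* had no window in the table. A match describes letters in a window and not a bound site.

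The other inducible BH3-only gene, *Pmaip1*, had the highest estimate of the family but missed the threshold. It encodes NOXA, which binds MCL1 in particular, and lies at chr18:66458604-66465550 on the plus strand. Its vehicle libraries held 4.64, 8.11 and 16.5 CPM and its AG636 libraries 20.6, 18.6 and 19.3 CPM. The groups did not overlap, but the vehicle libraries were widely spread and the highest of them came close to the AG636 libraries. Means were 9.75 ± 6.10 CPM and 19.5 ± 1.04 CPM (SD, n = 3), and all 6 libraries together held 456 counts of the gene. The log2 fold change was 1.02 (SE 0.37, 95% confidence interval 0.20 to 1.83), with an adjusted p of 0.0717 (edgeR, Benjamini-Hochberg) and an exact permutation p of 0.1. Without Vehicle replicate 3 the log2 fold change was 1.56 and the adjusted p 0.00963 by the same edgeR test. Leaving out any other mouse gave an adjusted p between 0.0925 and 0.204 (edgeR, Benjamini-Hochberg), and the log2 fold change was 0.68 without Vehicle replicate 1. DESeq2 and limma-voom called *Pmaip1*, with adjusted p of 0.0343 and 0.0317, and so did edgeR with no filter of low counts (0.00199).

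**Figure D1:**
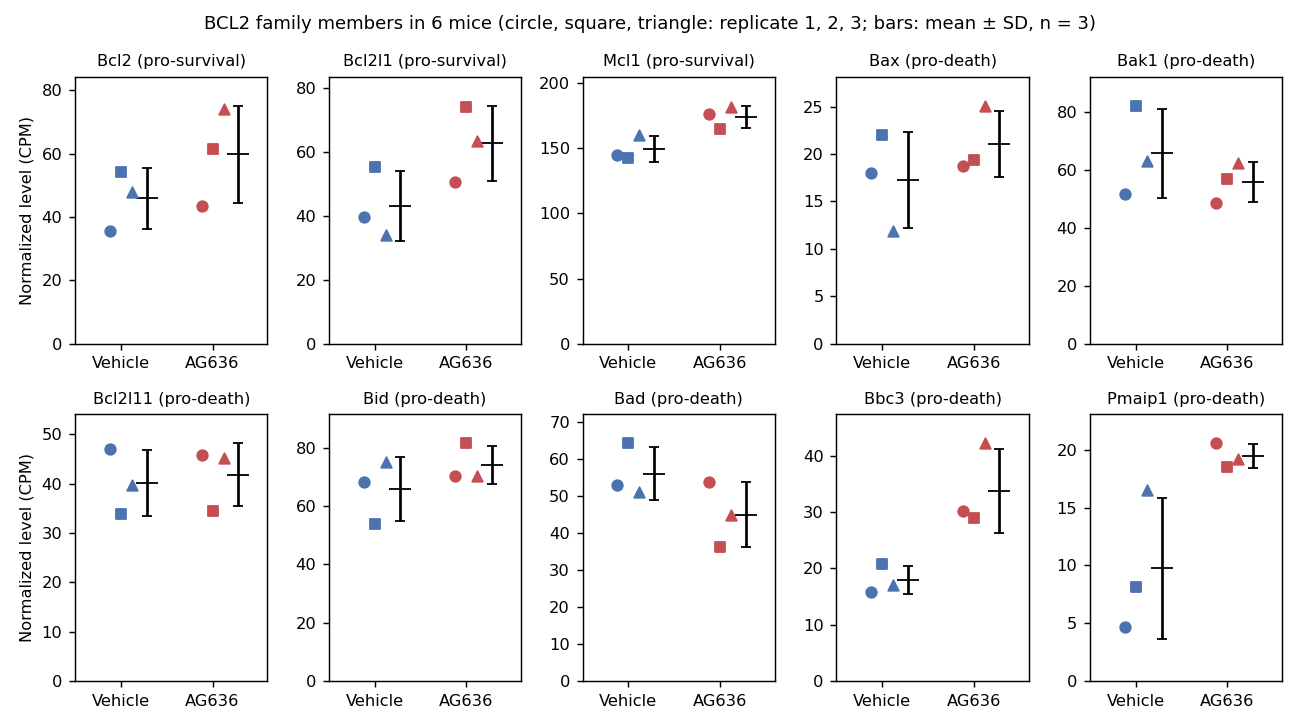
Level of each of the 10 family genes in the 6 mice. The vertical axes give CPM and start at 0, circles, squares and triangles are replicates 1, 2 and 3, and bars give the mean ± SD of 3 mice. The groups are apart for *Mcl1*, *Bbc3* and *Pmaip1* and overlap for the other 7 genes. Over all genes tested the groups were apart for 41.1%.

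*Bcl2l11*, *Bid* and *Bad*, the remaining BH3-only genes, were not called. *Bcl2l11* encodes BIM, which binds all pro-survival proteins and lies downstream of cytokine withdrawal (chr2:128126038-128162547, plus strand). It measured 47.1, 33.7 and 39.7 CPM with vehicle and 45.9, 34.4 and 45.1 CPM with AG636, so the groups covered nearly the same range. Its log2 fold change was 0.06 (SE 0.18) and its 95% confidence interval, -0.34 to 0.46, leaves room for modest differences in either direction. The sign turned to -0.064 without Vehicle replicate 2 and to -0.014 without AG636 replicate 1.

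*Bid* encodes the protein that caspase-8 cleaves to link death receptors to mitochondria, and lies at chr6:120891930-120916853 on the minus strand. Its vehicle values were 68.3, 53.8 and 75.2 CPM and its AG636 values 70.3, 81.7 and 70.2 CPM. The groups overlapped, with a log2 fold change of 0.18 (SE 0.15, 95% confidence interval -0.17 to 0.52). *Bad*, whose product is kept inactive by growth factor signaling, lies at chr19:6941861-6951898 on the plus strand. It measured 52.8, 64.2 and 51.0 CPM with vehicle and 53.7, 36.1 and 44.7 CPM with AG636. The highest AG636 value exceeded 2 of the 3 vehicle values, and the log2 fold change was -0.32 (SE 0.18, 95% confidence interval -0.71 to 0.07). Adjusted p were 0.832 for *Bcl2l11*, 0.441 for *Bid* and 0.210 for *Bad* (edgeR, Benjamini-Hochberg). Exons of *Bid* overlap those of *Bcl2l13* on the opposite strand over 628 bases, and exons of *Bad* overlap those of *Gpr137* over 517 bases. Whether reads were counted by strand is not given in the sources used here, so reads in these stretches may have been assigned to either gene.

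Neither effector gene was called, and their estimates had opposite signs. *Bax* encodes the effector that moves from the cytosol to mitochondria and lies at chr7:45461697-45466898 on the minus strand. It was at 18.0, 22.0 and 11.9 CPM in vehicle mice and at 18.7, 19.4 and 25.1 CPM in AG636 mice. The groups overlapped, and the log2 fold change was 0.27 (SE 0.24, 95% confidence interval -0.27 to 0.81). *Bak1* encodes the effector that resides in the mitochondrial membrane and lies at chr17:27019810-27029009 on the minus strand. Vehicle mice had 51.7, 82.0 and 63.1 CPM of *Bak1* and AG636 mice 48.4, 56.7 and 62.1 CPM. These ranges also overlapped, with a log2 fold change of -0.24 (SE 0.18, 95% confidence interval -0.65 to 0.17). Adjusted p were 0.447 for *Bax* and 0.376 for *Bak1* (edgeR, Benjamini-Hochberg). *Bak1* shares 357 exonic bases with *Ggnbp1* on the opposite strand, which held 118 counts against 2051 for *Bak1*.

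All 3 pro-survival genes had estimates above 0, with a median log2 fold change of 0.38, but none was called. Estimates above 0 were also found for 5801 of all 11092 genes tested. The median was 0.21 without Vehicle replicate 1 and 0.19 without AG636 replicate 3, and at most 0.56 without any 1 mouse. *Mcl1*, whose short-lived protein holds BAK and BIM in check, was the most abundant member and lies at chr3:95658788-95663176 on the plus strand. It measured 145, 143 and 161 CPM with vehicle and 176, 165 and 182 CPM with AG636. The groups did not overlap, but the lowest AG636 value lay only just above the highest vehicle value. The log2 fold change was 0.22 (SE 0.11, 95% confidence interval -0.03 to 0.48), with an exact permutation p of 0.1. *Bcl2l1*, which encodes BCL-XL, lies at chr2:152780668-152831728 on the minus strand. It was at 39.8, 55.5 and 34.1 CPM with vehicle and at 50.8, 74.2 and 63.4 CPM with AG636. One AG636 library fell below the highest vehicle library, Vehicle replicate 2, and the log2 fold change was 0.54 (SE 0.21, 95% confidence interval 0.08 to 0.99). Without Vehicle replicate 2 the log2 fold change was 0.75 and the adjusted p 0.0496, and without any other mouse the adjusted p lay between 0.0809 and 0.236 (edgeR, Benjamini-Hochberg).

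*Bcl2*, the founding member and the target of venetoclax, lies at chr1:106538178-106714274 on the minus strand. Its values were 35.5, 54.2 and 47.9 CPM in vehicle mice and 43.5, 61.4 and 74.2 CPM in AG636 mice. The groups overlapped, and the log2 fold change was 0.38 (SE 0.22, 95% confidence interval -0.10 to 0.86). Adjusted p were 0.178 for *Mcl1*, 0.0880 for *Bcl2l1* and 0.232 for *Bcl2* (edgeR, Benjamini-Hochberg). Over the 7 pro-death genes the median was 0.18, with 5 estimates above 0 and 2 below. It was 0.036 without Vehicle replicate 2 and 0.051 without Vehicle replicate 3. Without Vehicle replicate 1 the medians of both classes were close, at 0.21 for the pro-survival and 0.19 for the pro-death genes.

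**Figure D2:**
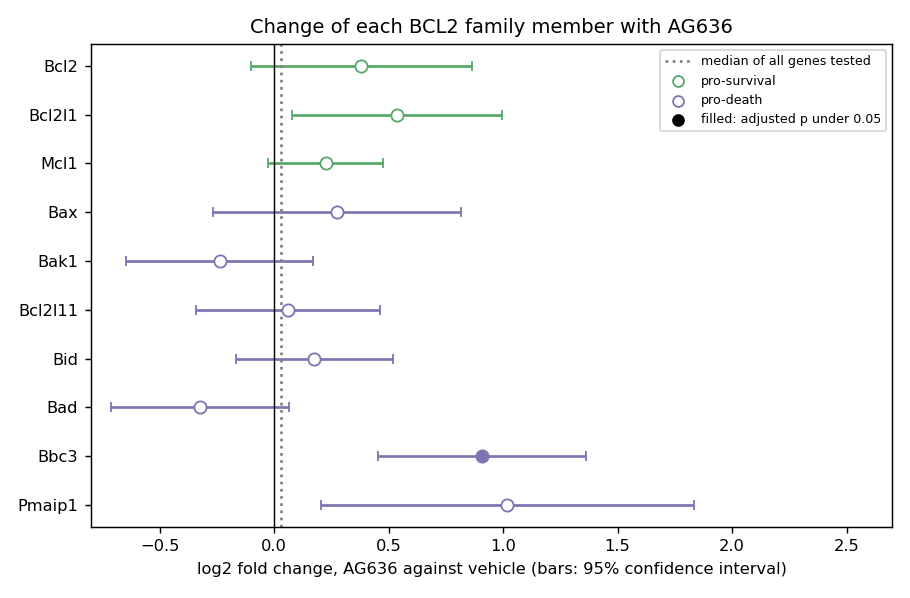
Log2 fold change of each member, AG636 against vehicle, with its 95% confidence interval (horizontal axis). Pro-survival genes are green, pro-death genes purple, a filled point has an adjusted p under 0.05, and the dotted line is the median of all genes tested (0.03). Only *Bbc3* is filled, and the interval of *Pmaip1* is the widest.

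The order of levels within the family was similar in both groups. With vehicle, *Mcl1* led at 149 ± 9.88 CPM and stood clear of all other members. *Bid* (65.8 ± 11.0 CPM), *Bak1* (65.6 ± 15.3), *Bad* (56.0 ± 7.18), *Bcl2* (45.8 ± 9.50), *Bcl2l1* (43.1 ± 11.1) and *Bcl2l11* (40.2 ± 6.67) followed, and each overlapped the next in range. *Bbc3*, *Bax* (17.3 ± 5.07) and *Pmaip1* formed the low end, with a gap between *Bcl2l11* and *Bbc3*. With AG636, *Mcl1* was again apart at 174 ± 8.46 CPM, followed by *Bid* (74.1 ± 6.58), *Bcl2l1* (62.8 ± 11.7), *Bcl2* (59.7 ± 15.4), *Bak1* (55.7 ± 6.89), *Bad* (44.9 ± 8.83) and *Bcl2l11* (41.8 ± 6.40). *Bbc3* now overlapped *Bcl2l11* in range, and the gap lay between *Bbc3* and *Bax* (21.1 ± 3.52). All errors are SD over 3 mice.

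As a share of the family's counts, *Mcl1* was at 29.3 ± 2.41% with vehicle and 29.7 ± 1.61% with AG636. The *Bbc3* share was 3.50 ± 0.323% and 5.71 ± 0.903%, and its groups did not overlap. Shares of *Bak1* (12.8 ± 2.29% and 9.46 ± 0.686%) and *Bad* (11.0 ± 1.05% and 7.67 ± 1.75%) were lower in every AG636 mouse than in any vehicle mouse. In CPM both genes overlapped and neither was called, while the groups were apart for 41.1% of all genes tested. A share also depends on the family's sum, which was 511 ± 29.7 CPM with vehicle and 588 ± 36.2 CPM with AG636. The other 7 shares overlapped between the groups. Summed over the 3 pro-survival genes, levels were 220, 252 and 243 CPM with vehicle and 271, 301 and 319 CPM with AG636. Summed over the 7 pro-death genes they were 258, 285 and 275 CPM with vehicle and 288, 276 and 309 CPM with AG636. The pro-survival sums were apart and the pro-death sums overlapped.

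The pro-survival sum divided by the pro-death sum was 0.852, 0.886 and 0.884 in vehicle mice and 0.940, 1.09 and 1.03 in AG636 mice. Every AG636 mouse lay above every vehicle mouse, with a difference of 0.22 on the log2 scale that ranged from 0.17 to 0.28 when each mouse was left out in turn. The most abundant gene, *Mcl1*, weighs most in the pro-survival sum, at a mean of 149 CPM with vehicle and 174 CPM with AG636. Its share of the family's counts was 29.3% with vehicle and 29.7% with AG636. The part of *Mcl1* in the difference of the ratio was not tested. Ratios between known partners differed in direction. *Mcl1* to *Pmaip1* was 31.2, 17.6 and 9.73 with vehicle and 8.56, 8.90 and 9.44 with AG636, so the groups were apart by a narrow gap at Vehicle replicate 3. *Bcl2l1* to *Bad* was 0.753, 0.864 and 0.668 with vehicle and 0.945, 2.06 and 1.42 with AG636, again apart but in the opposite direction. The log2 differences were -0.96 for *Mcl1* to *Pmaip1* and 0.89 for *Bcl2l1* to *Bad*. The first was -0.55 without Vehicle replicate 1 and -1.39 without Vehicle replicate 3, and the second ranged from 0.61 to 1.17 over the 6 mice left out. *Mcl1* to *Bcl2l11*, *Bcl2* to *Bcl2l11* and *Bcl2* to *Bax* overlapped between the groups, with log2 differences of 0.17, 0.31 and 0.05. With each mouse left out in turn they ranged from 0.024 to 0.25, from 0.017 to 0.60 and from -0.17 to 0.34, with the lowest value of each without Vehicle replicate 1. These sums and ratios describe RNA in 6 libraries and were not tested. For single genes, CPM were apart between the groups for 41.1% of all genes tested. No such share was obtained for sums or ratios.

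**Figure D3:**
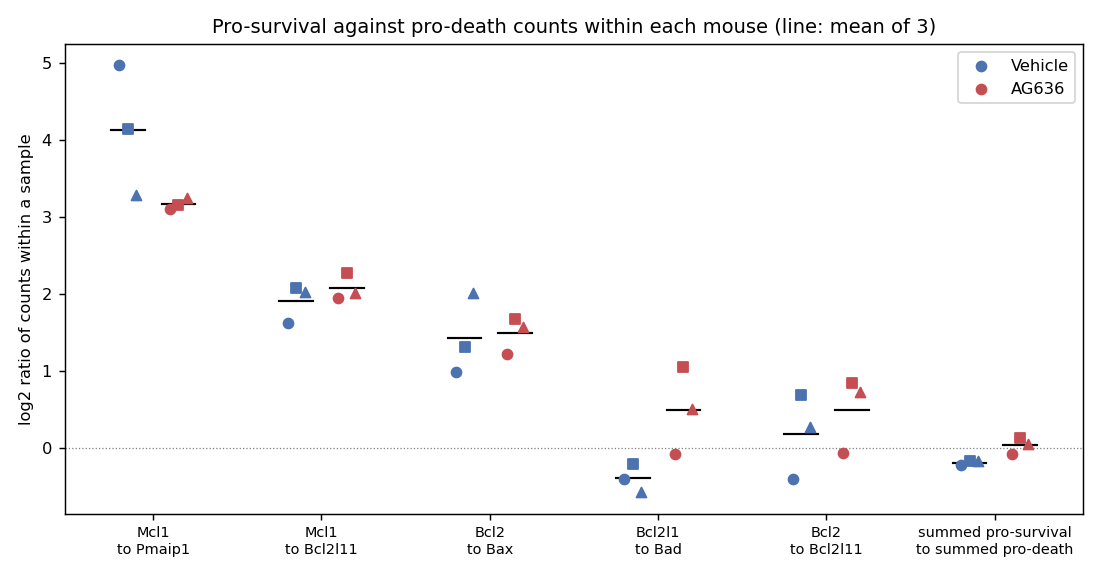
Ratios between family members in each of the 6 mice, on a log2 axis, with vehicle in blue, AG636 in red, symbols for replicates 1, 2 and 3, and a line at the mean of 3 mice. *Mcl1* to *Pmaip1* is lower, and *Bcl2l1* to *Bad* and the summed pro-survival to pro-death ratio are higher, in all AG636 mice than in any vehicle mouse. Over all genes tested the CPM of the groups were apart for 41.1%.

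Of 9 further pro-survival and pro-death relatives only *Bcl2l2* (BCL-W) had enough reads to be tested, with a log2 fold change of 0.17. *Bmf*, a BH3-only gene, held 50 counts in all and was below the filter, as were *Bik* (25 counts), *Bok* (5) and *Hrk* (1). With no filter *Bmf* had a log2 fold change of 2.36 (SE 0.65) and an adjusted p of 0.00343 (edgeR, Benjamini-Hochberg). Among 5 tested proteins with BCL2 homology, *Bcl2l14* was called higher, at 0.891, 1.31 and 1.88 CPM with vehicle and 2.34, 5.98 and 3.40 CPM with AG636. These are levels of few reads, and the adjusted p of *Bcl2l14* was 0.0451 (edgeR, Benjamini-Hochberg). The gene passed the filter only through its AG636 libraries (11, 29 and 18 counts, against 5, 10 and 9 with vehicle). It was thus tested only because of the group in which it was higher. DESeq2 (0.0611) and limma-voom (0.0563) did not call it, nor did edgeR without any 1 library other than AG636 replicate 1 (adjusted p up to 0.143).

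Over all 9 lists of other apoptosis genes, 61 genes were listed and 50 tested, of which 14 were called (28%, beside 21.3% of all genes), 5 higher and 9 lower, and the median log2 fold change was 0.00. Among those called higher, *Bcl2l14* passed the filter only through its AG636 libraries. *Tnfrsf10b* (15, 9 and 10 counts with vehicle) also needed AG636 libraries to pass it. With library size alone as the scaling, 9 were called higher of 15 called. The counts of each list below stand beside 10.3% of all genes tested called higher and 11% called lower. With so few genes a list, a difference from these shares was not tested. Downstream of the mitochondria, 3 of 14 apoptosome and caspase genes were called lower and none higher. *Htra2*, a protease released from the intermembrane space, was at 244, 153 and 146 CPM with vehicle and 96.4, 93.6 and 83.6 CPM with AG636. All AG636 libraries lay well below the vehicle libraries, with a log2 fold change of -0.99 (SE 0.19) and an adjusted p of 0.00939 (edgeR, Benjamini-Hochberg). *Htra2* shares 753 exonic bases with *Aup1* on the opposite strand, a gene with 4597 counts against 4585 for *Htra2*. *Diablo*, which encodes the IAP antagonist SMAC, and *Cycs*, which encodes cytochrome c, had log2 fold changes of -0.74 and -0.49 and adjusted p of 0.0205 and 0.0441 (edgeR, Benjamini-Hochberg). *Cycs* lost its call without any 1 library other than AG636 replicate 1 (adjusted p up to 0.152, edgeR), and *Diablo* without replicate 1 or 2 of Vehicle or replicate 1 or 3 of AG636 (0.0517 to 0.0792). *Apaf1* and *Casp9*, whose products form the apoptosome, had log2 fold changes of 0.38 and 0.00 and were not called.

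Of 5 inhibitor of apoptosis genes, *Xiap* and *Birc3* were called higher. *Xiap*, whose product blocks caspases directly, measured 51.7, 50.0 and 58.5 CPM with vehicle and 87.7, 75.7 and 81.4 CPM with AG636. Its groups were widely apart, with a log2 fold change of 0.61 and an adjusted p of 0.0127, while *Birc3* had 0.77 and 0.0468 (edgeR, Benjamini-Hochberg). *Xiap* was not called without Vehicle replicate 2 or AG636 replicate 1 (adjusted p of 0.0518 and 0.0526, edgeR), and *Birc3* not without any 1 of the 6 libraries (0.0592 to 0.140). In the death receptor arm, 2 of 7 genes tested were called higher and 1 lower. *Cflar*, which encodes the caspase-8 inhibitor c-FLIP, was at 37.1, 54.5 and 56.8 CPM with vehicle and 81.6, 87.4 and 98.2 CPM with AG636. *Tnfrsf10b*, the TRAIL receptor, was also higher from a low level (1.98 ± 0.755 to 4.96 ± 1.19 CPM), and the adaptor gene *Fadd* was lower (28.0 ± 0.585 to 17.8 ± 3.97 CPM). Log2 fold changes were 0.85 for *Cflar*, 1.35 for *Tnfrsf10b* and -0.65 for *Fadd*, at adjusted p of 0.0115, 0.0384 and 0.0416 (edgeR, Benjamini-Hochberg). *Tnfrsf10b* was not called without any 1 library other than Vehicle replicate 1 (adjusted p up to 0.135, edgeR), and *Fadd* not without any 1 other than AG636 replicate 2 (up to 0.122).

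Among 6 outer membrane partners of the family, 3 were called lower and none higher. *Mtch2*, the membrane receptor of tBID, was at 214, 193 and 205 CPM with vehicle and 148, 145 and 137 CPM with AG636. The channel gene *Vdac2*, whose product holds BAK at mitochondria, went from a mean of 400.3 CPM to 293 CPM, and *Vdac1* from 417 to 308 CPM. Adjusted p were 0.0131 for *Mtch2*, 0.0210 for *Vdac2* and 0.0449 for *Vdac1* (edgeR, Benjamini-Hochberg). *Mtch2* was not called without AG636 replicate 3 (adjusted p 0.0560, edgeR). Leaving out replicate 1 or 2 of Vehicle or replicate 1 or 3 of AG636 ended the calls of *Vdac1* (0.0609 to 0.152) and *Vdac2* (0.0538 to 0.0834).

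None of 7 tested transcription factors of BH3-only genes was called higher, and 2 were called lower. *Atf4*, the factor of the integrated stress response, was at 387, 387 and 355 CPM with vehicle and 204, 243 and 165 CPM with AG636. Its log2 fold change was -0.88 (SE 0.15) with an adjusted p of 0.00517, and *Ddit3*, which encodes CHOP, had -0.76 and 0.0125 (edgeR, Benjamini-Hochberg). *Trp53*, which acts on *Bbc3* and *Pmaip1*, had -0.42 and an adjusted p of 0.0727, and *Foxo3* had 0.42 and 0.0598 (edgeR, Benjamini-Hochberg). Of 5 genes for MCL1 protein turnover none was called, and their median log2 fold change was 0.01. *Htra2*, *Cflar*, *Ddit3* and *Atf4* were called under all 13 alternative settings at the threshold of 0.05, whereas each of the other 10 genes lost its call when at least 1 mouse was left out.

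**Figure D4:**
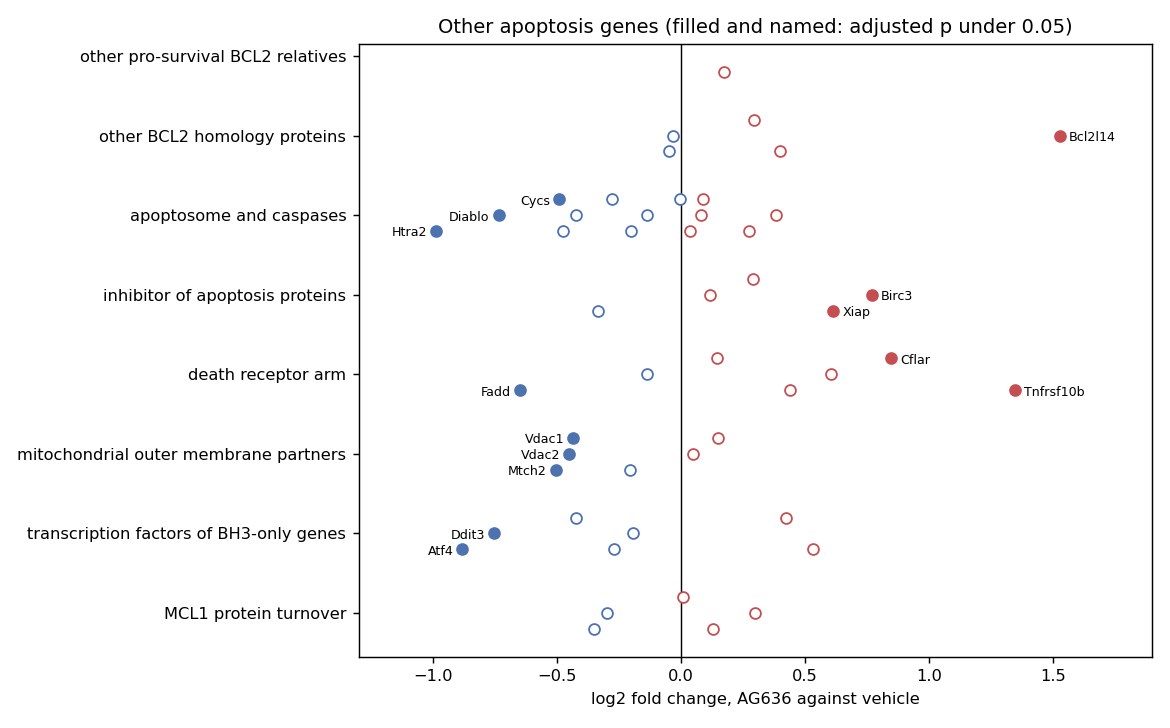
Log2 fold change (horizontal axis) of the tested genes on the lists of other apoptosis genes, 1 point per gene and 1 band per list. Filled and named points have an adjusted p under 0.05; red is above and blue below 0. Called genes lie above 0 among the inhibitor of apoptosis proteins and below 0 among the apoptosome, membrane partner and transcription factor lists. In the death receptor list 2 called genes lie above 0 and 1 below, and the 1 called BCL2 homology gene lies above 0. Over all genes tested 10.3% were called higher and 11% lower.

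The pattern over the 6 libraries was compared with that of 8483 genes with a mean of at least 10 CPM. Nearest to *Bbc3* were *Mxd4* (Pearson's r of log2 CPM 0.994), *Elf1* (0.993) and *Gsn* (0.991). Nearest to *Bcl2l1* were *Ankra2* (0.993), *Stk38* (0.990) and *Nr2c2* (0.985). These values are descriptions over 6 samples that share the group difference.

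**Figure D5:**
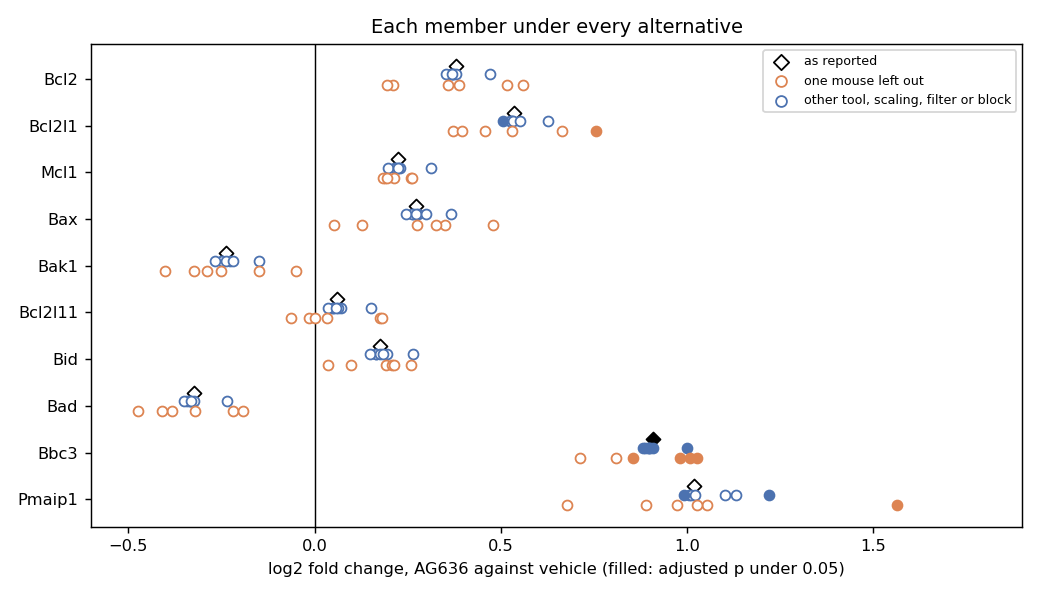
Log2 fold change of each member as reported (diamond), with 1 mouse left out (orange) and with another tool, scaling, filter or block (blue), filled where the adjusted p is under 0.05. *Bbc3* ranges from 0.71 to 1.03, *Pmaip1* from 0.68 to 1.56, and *Bcl2l11* crosses 0.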

How the data were processed

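The authors deposited read counts per gene for 6 QuantSeq 3′ libraries, with GRCm38/mm10 exon coordinates and a gene length in bases (not used in any test). The submitters' processing notes name FastQC, cutadapt 1.9.1, HISAT2 2.0.4, and featureCounts of Subread 1.5.0-p3, and the study's methods give other versions of cutadapt and Subread. Annotation release, strand use and multimapping are not given in the sources used here. No molecular identifiers were described, so the floors of 3 counts cover counting error only. GENCODE M21 gave symbols to 54723 of 54838 identifiers.

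Groups came from the labels, which number 3 separate mice each. Chi-square statistics over genes found no duplicated library among pairs within a group. Pairs across the groups were not compared. Tests ran in edgeR 4.0.16 under R 4.3.3 (filterByExpr at minimum count 10 and minimum total 15, TMM scaling, quasi-likelihood test, Benjamini-Hochberg adjustment, threshold 0.05), tested on simulated data first. Of 11092 genes tested, 1146 were called higher and 1222 lower. Standard errors were derived from the F statistic. Alternatives were DESeq2 1.42.0, limma-voom (limma 3.58.1), other scalings and filters, a replicate block, a threshold of 0.01 and leaving out each mouse.

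Genes named are the 10 members, every called gene of 9 lists of other apoptosis genes, those needed to describe a role, genes with overlapping exons, and for the member with the lowest adjusted p of each class the 3 genes nearest by correlation. The members and lists were chosen with earlier results of these data known.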

Additional observations from a re-analysis of the deposited data

How the results depend on the processing

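Over the 10 members and 13 alternatives each, 120 of 130 values kept their direction and their side of the threshold, 6 newly passed it, 2 no longer passed it (*Bbc3*) and 2 changed sign (*Bcl2l11*, -0.064 without Vehicle replicate 2 and -0.014 without AG636 replicate 1). The number of members called was 2 with DESeq2 (22.5% of all genes), 2 with limma-voom (21.4%), 3 with no filter (14.8%), 0 at an adjusted p under 0.01, and 0 to 2 with 1 mouse left out (7.58 to 20.2%). The filter of low counts mattered for *Bcl2l1* and *Pmaip1*, whose adjusted p were 0.0310 and 0.00199 without it (edgeR, Benjamini-Hochberg).

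Of the other apoptosis genes, 2 were called at an adjusted p under 0.01 (0 higher, 2 lower) and 5 to 11 with 1 mouse left out (1 to 4 higher, 3 to 8 lower). Those called higher numbered 9 with library size alone, 8 with no filter and 3 with at least 10 counts in every sample. Over all genes, 556 were called at an adjusted p under 0.01 (231 higher, 325 lower) and 851 to 2311 with 1 mouse left out (399 to 1074 higher, 452 to 1298 lower). Library size alone gave 1483 higher and 913 lower, beside 1146 and 1222.

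Replicate numbers showed no clear pairing of the mice: same-numbered samples correlated at -0.09, -0.22 and 0.28, and not every sample correlated best with its own number. Values were centered within groups of 3 samples, so these correlations cannot settle whether the numbers pair the mice. With a replicate block, *Bbc3* stayed the 1 member called (log2 fold change 0.89), 1960 genes were called in all, and 3 other apoptosis genes were called higher. The median log2 fold changes were 0.37 (pro-survival) and 0.18 (pro-death) under this block, and ranged from 0.19 to 0.56 and from 0.036 to 0.21 with 1 mouse left out.

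With 3 mice a group and a median SE of 0.20, a log2 fold change of the size seen for most members could not be told from 0. The least precise member was *Pmaip1* (SE 0.37), with 456 counts in all and an SD of 6.10 CPM with vehicle against 1.04 CPM with AG636.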
